A study of Homo sapiens
Mus musculus and Mus musculus and Homo sapiens with 16 samples.

Results

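The 10 genes described here were grouped as ERK feedback phosphatases and Sprouty genes, ERK being 1 branch of MAP kinase signalling. They were followed in REC-1 cells, a mantle cell lymphoma (MCL) cell line. They were taken by symbol from the human gene count table, which listed 58051 genes, and comprise the MAP kinase phosphatases DUSP2, DUSP4, DUSP5, DUSP6 and DUSP10, the Sprouty genes SPRY1 and SPRY2, the related SPRED1 and SPRED2, and PHLDA1. Of the 10 genes, 8 passed the low-count filter and were tested together with the rest of the 12861 genes that passed, while DUSP4 and DUSP6 did not pass. REC-1 cells were cultured for 24 h either alone (Sep) or with MS-5, a mouse bone marrow stromal cell line. From the coculture, cells in suspension (Susp) and cells adhered to the stromal layer (Adh) gave separate libraries, with 4 libraries in each of the 3 groups. Every group came from this 1 cell line. The Adh libraries contained RNA of both species, because adherent lymphoma cells were lysed together with the MS-5 cells and the reads were divided by species afterwards. JeKo-1, the other MCL line of the study, was not analysed here.

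ERK is activated by a relay in which RAS recruits a RAF kinase, RAF phosphorylates MEK, and MEK phosphorylates ERK. In B cells the relay is switched on by the B cell receptor, and by growth factor receptors in stromal cells. Active ERK raises the transcription of genes whose products turn the relay down again. The dual-specificity phosphatases remove the activating phosphates from ERK, p38 or JNK, Sprouty proteins act between receptors and RAS, and SPRED proteins bring the RAS-inactivating protein neurofibromin to the membrane. Transcript levels of such genes are therefore often read as a record of recent ERK activity, although each gene also has other inputs.

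Human counts per library ranged from 7758979 to 21467832. They ranged from 9325412 to 12597891 in Sep cells, from 15000927 to 21467832 in Susp cells, and from 7758979 to 13241751 in Adh cells, where human reads made up 18.3% to 28.2% of the counts of both species. Among counts between 1 and 10, 65.6% to 79.8% were even numbers in each of the 12 libraries, so a count did not correspond to an independent fragment, and counting intervals and detection limits below are too narrow to that extent. Susp replicate 2 stood apart from the other Susp libraries. The chi-square per degree of freedom over genes was 52.8 to 57.4 between it and the others, compared with 4.19 to 20.8 for the other 15 pairs of libraries within a group. Values of DUSP2, DUSP5, MAP2K3 and the genes most like DUSP5 that include it are also given without it. Markers of B cells and MCL were present in all groups, with a summed level of 4923 to 6404 CPM (counts scaled to a common library size with TMM factors), 9 of the 10 markers averaging at least 1 CPM in each group and CD5 below it. The largest part of the sum was CCND1, listed as an MCL marker, at 1444, 1672 and 1441 CPM on average in Sep, Susp and Adh cells. Human stromal markers summed to 13.6 to 21.7 CPM in Sep cells, 13.5 to 18.5 CPM in Susp cells and 9.12 to 14.4 CPM in Adh cells. In each group 5 of the 12 stromal markers had no counts, THY1 among them, and 3 averaged at least 1 CPM. These were TAGLN (10.4, 10.7 and 6.63 CPM in Sep, Susp and Adh cells), FN1 (4.33, 3.19 and 4.50 CPM) and POSTN (1.36, 1.51 and 1.10 CPM), which were thus present also in cells cultured alone.

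Per kilobase of exon, DUSP2 was the most abundant of the 10 transcripts in every group. It is a nuclear phosphatase of lymphocytes that acts on ERK and p38. Its mean RPKM (CPM per kilobase) was 28.5 ± 4.97 (SD, n = 4) in Sep, 32.1 ± 5.82 in Susp and 31.7 ± 7.10 in Adh cells, and its range over libraries did not overlap that of the next gene in any group. DUSP5, a nuclear phosphatase selective for ERK, came next with 5.75 ± 1.02 RPKM in Sep, 9.52 ± 1.88 in Susp and 8.39 ± 0.498 in Adh cells, again without overlap with the gene below it. PHLDA1 and DUSP10 followed at 1.66 to 2.51 RPKM, and their libraries overlapped with each other in every group. SPRED1, SPRY1 and SPRY2 lay between 0.473 and 1.09 RPKM. Their order differed between groups: SPRED1 led in Sep and Adh cells, whereas SPRY2 led in Susp cells, where its libraries overlapped those of SPRED1. In Sep cells the libraries of SPRED1 overlapped those of SPRY1, the next gene. SPRED2 (0.0847 to 0.166 RPKM) and DUSP6 (0.0291 to 0.0748 RPKM) were near the lower limit of detection, and DUSP4 was last. These RPKM values use exon lengths of GENCODE release 44, which is later than the annotation behind the counts.

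The start regions of DUSP5 and PHLDA1 are shown because these genes gave the 2 smallest p-values among the members in the comparison of Susp with Sep cells, in opposite directions. Each line gives the 250 bases before the annotated gene start on GRCh38, written 5′ to 3′ on the strand of the gene. For DUSP5 the window is chr10:110497657-110497906 (plus strand), and the capitals mark 2 adjacent CArG boxes, the sequence bound by serum response factor. For PHLDA1 it is chr12:76031777-76032026 (minus strand), and the capitals mark the core bound by ETS factors.
DUSP5: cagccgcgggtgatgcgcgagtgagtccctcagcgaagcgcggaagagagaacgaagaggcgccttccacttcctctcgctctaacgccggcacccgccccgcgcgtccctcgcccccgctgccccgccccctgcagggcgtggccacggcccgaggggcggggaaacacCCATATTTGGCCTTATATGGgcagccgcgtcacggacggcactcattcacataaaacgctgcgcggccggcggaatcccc
PHLDA1: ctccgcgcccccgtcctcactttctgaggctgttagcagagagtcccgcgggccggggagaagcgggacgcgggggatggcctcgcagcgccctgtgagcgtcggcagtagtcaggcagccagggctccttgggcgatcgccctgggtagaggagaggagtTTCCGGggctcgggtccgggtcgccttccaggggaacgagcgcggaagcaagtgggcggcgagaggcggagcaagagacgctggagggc
The CArG boxes of DUSP5 began 80 and 70 bases before the start. A CArG box was found in 1.12% of the 19969 protein-coding start regions of the same length, and in 1 of the 10 members, DUSP5. The ETS core CCGGAA, searched on both strands like all the motifs here, was found in DUSP4, SPRY2 and PHLDA1 and in 19.4% of all regions. The E-box CACGTG was found in DUSP2 and in 7.86% of all regions, and the GC box GGGCGG in 7 of the 10 members and in 59% of all regions. The AP-1 motif TGANTCA (4.73% of all regions), the CRE motif TGACGTCA (2.41%) and the NF-kB motif (5.89%) were found in none of the 10 windows. A match of letters is a description of these windows only, and factor binding was not measured.

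**Figure D1:**
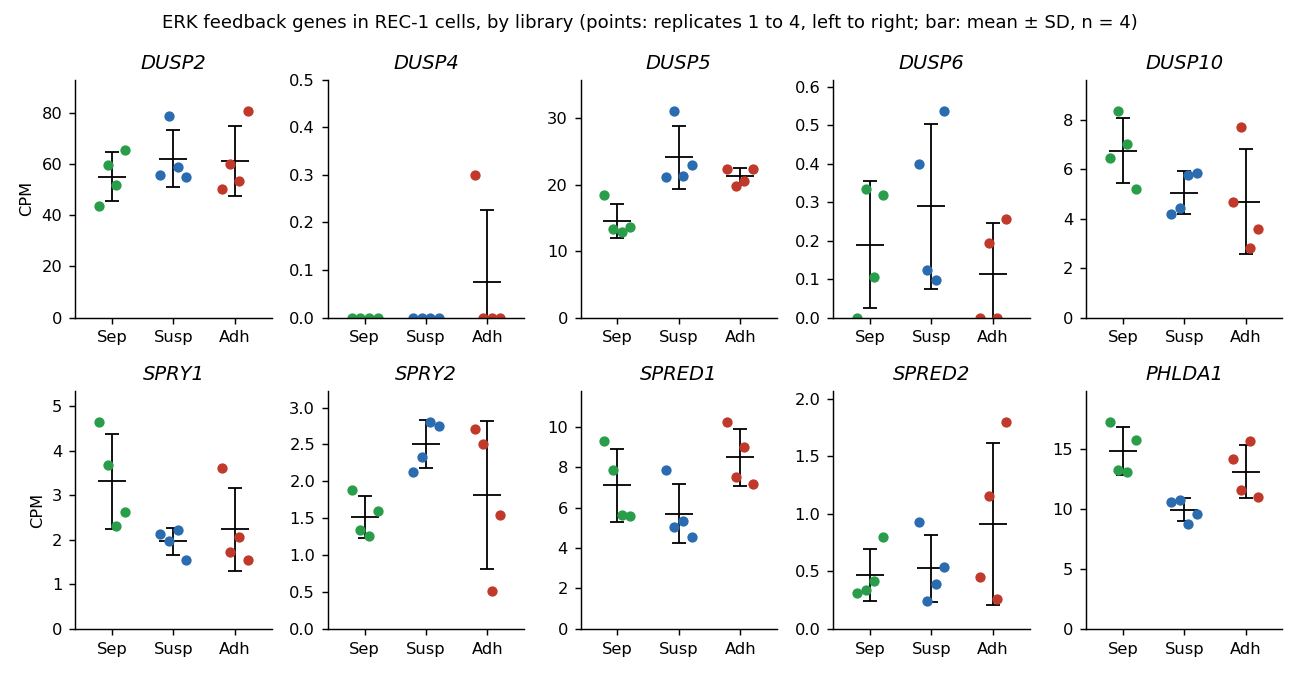
Levels of the 10 genes in REC-1 cells in CPM (vertical axes, each starting at 0) for monocultured (Sep), suspension (Susp) and adherent (Adh) cells. Points are the 4 libraries of a group, replicates 1 to 4 from left to right, and bars the mean ± SD. DUSP5 libraries of Susp cells (21.1 to 31.2 CPM) all lie above those of Sep cells (12.9 to 18.4 CPM), while DUSP2 overlaps between all groups.

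DUSP5 was the only member called in any comparison of REC-1 groups in the edgeR quasi-likelihood model. A call required a Benjamini-Hochberg adjusted p of at most 0.05 over all tested genes and a change of 1.5-fold or more. In Sep cells DUSP5 was at 18.4, 13.4, 12.9 and 13.6 CPM in replicates 1 to 4, in Susp cells at 21.1, 31.2, 21.3 and 23.0 CPM, and in Adh cells at 22.3, 19.8, 20.6 and 22.3 CPM. The Sep libraries were below all Susp and all Adh libraries, and the Susp and Adh libraries overlapped. DUSP5 rose by 1.65-fold in Susp relative to Sep cells (log2 fold change 0.72, SE 0.15, 95% interval 0.41 to 1.04, edgeR adjusted p = 0.0240). In that comparison 94 of 12861 genes, or 0.731%, were called, 55 higher and 39 lower, and DUSP5 had rank 93 of all genes by p. In Adh relative to Sep cells its log2 fold change was 0.54 (SE 0.15, 95% interval 0.22 to 0.86, edgeR adjusted p = 0.0628), a fold of 1.46 that missed both thresholds. Between Adh and Susp cells, the log2 fold change was -0.18 with an interval of -0.49 to 0.13 (edgeR adjusted p = 0.519), and without Susp replicate 2 it was -0.019 (edgeR adjusted p = 0.955). The 3 comparisons share groups, so their values are not independent of each other. Since these were bulk libraries, more cells expressing DUSP5 and more DUSP5 RNA per cell cannot be told apart.

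The call on DUSP5 was close to its thresholds. Over 18 other settings the log2 fold change in Susp relative to Sep cells ranged from 0.56 to 0.86, and the call was kept in 12. Dropping the fold minimum, which is among the 12, reused the same fit and could not lose the call. Without Susp replicate 2, in which DUSP5 was highest, the log2 fold change was 0.56 (edgeR adjusted p = 0.0457), below the required fold. Without Sep replicate 2, 3 or 4 the edgeR adjusted p was 0.113, 0.108 and 0.0790, and without Susp replicate 4 it was 0.0530. A model of only the 8 Susp and Sep libraries gave 0.0826 with a log2 fold change of 0.72. Conversely, Sep replicate 1 had the highest DUSP5 level of its group, and without it DUSP5 was also called in Adh relative to Sep cells (log2 fold change 0.68, edgeR adjusted p = 0.0170). Over 18 other settings the log2 fold change of DUSP5 in Adh relative to Sep cells ranged from 0.49 to 0.68. Its adjusted p was at most 0.05 in 5 of them, and 1 of these also reached the required fold.

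**Figure D2:**
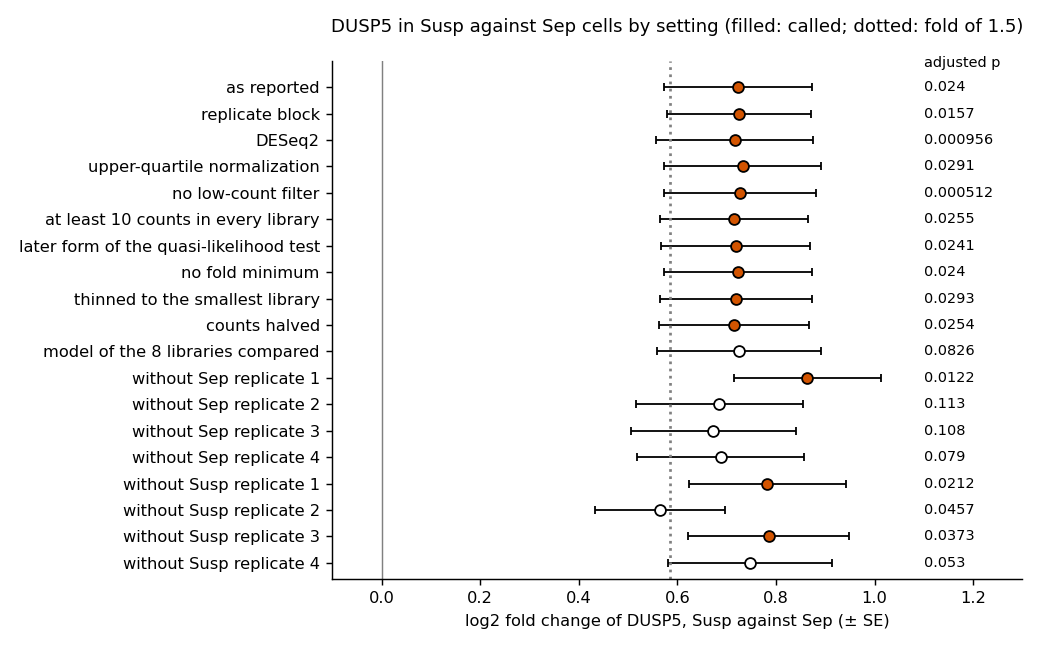
Log2 fold change of DUSP5 in Susp relative to Sep cells (horizontal axis, ± SE) as reported and in 18 other settings (vertical axis), with the adjusted p of each at the right. Filled points met both requirements of a call, and the dotted line marks a fold of 1.5. All estimates are above 0, between 0.56 and 0.86, and 6 of the 18 settings lose the call.

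DUSP2 showed no such difference. It was at 43.4, 59.5, 51.7 and 65.5 CPM in Sep libraries, at 55.6, 78.7, 58.7 and 55.0 CPM in Susp libraries, and at 50.4, 60.1, 53.2 and 80.7 CPM in Adh libraries. All 3 groups overlapped, and the highest single values came from Adh replicate 4 and Susp replicate 2. The log2 fold change was 0.17 (95% interval -0.17 to 0.51) in Susp relative to Sep cells, 0.15 (-0.20 to 0.49) in Adh relative to Sep cells, and -0.03 (-0.37 to 0.32) in Adh relative to Susp cells. The edgeR adjusted p-values were 0.585, 0.656 and 0.944. Without Susp replicate 2 the first value became 0.029 and the last 0.12. The last also turned its sign without Adh replicate 1 or Adh replicate 3, to 0.059 and 0.029. The 3 intervals given, from all libraries, leave out a 1.5-fold change. This does not cover fits with a library left out. Without Sep replicate 4 the log2 fold change in Susp relative to Sep cells was 0.27 (SE 0.17).

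PHLDA1, a pleckstrin homology-like protein whose transcript accumulates with ERK signalling, had its lowest values in Susp cells. It was at 17.2, 13.2, 13.1 and 15.8 CPM in Sep libraries, at 10.6, 10.8, 8.75 and 9.60 CPM in Susp libraries, and at 14.2, 11.6, 15.7 and 11.0 CPM in Adh libraries. The Susp libraries lay below every Sep and every Adh library, whereas Sep and Adh libraries overlapped. The log2 fold change was -0.58 in Susp relative to Sep cells (SE 0.15, 95% interval -0.90 to -0.27, edgeR adjusted p = 0.0774), and 0.40 in Adh relative to Susp cells (SE 0.15, 95% interval 0.08 to 0.72, edgeR adjusted p = 0.192). Neither was called. The first of them was called with DESeq2 (log2 fold change -0.59, adjusted p = 0.0132) and after thinning all libraries to the smallest total (-0.73, edgeR adjusted p = 0.0267). In Adh relative to Sep cells it was -0.18 (95% interval -0.50 to 0.14, edgeR adjusted p = 0.548). PHLDA1 shares 9.35% of its exon bases with the antisense gene PHLDA1-AS1, and the library kit does not mark strand. That gene held 3 counts over all 12 libraries, and how its reads were divided from those of PHLDA1 was not tested. The Adh libraries held 517 human PHLDA1 counts and 1011 mouse Phlda1 counts. Whether wrongly assigned mouse reads contributed to the Adh values of PHLDA1 was not tested.

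The remaining phosphatases were lower. DUSP10, which prefers p38 and JNK over ERK, was at 6.46, 8.37, 7.01 and 5.18 CPM in Sep libraries, at 4.18, 4.43, 5.75 and 5.84 CPM in Susp libraries, and at 4.66, 7.70, 2.83 and 3.59 CPM in Adh libraries. The groups overlapped, and its log2 fold change was -0.41 (95% interval -0.95 to 0.12) in Susp and -0.50 (-1.06 to 0.06) in Adh relative to Sep cells, with edgeR adjusted p-values of 0.398 and 0.308. The value in Adh cells moved to -0.84 without Adh replicate 2 (edgeR adjusted p = 0.0873) and to -0.33 without Adh replicate 3. DUSP6, the cytoplasmic ERK phosphatase, had 9 counts over the 4 Sep libraries, 18 over the Susp libraries and 4 over the Adh libraries. No library held more than 8 counts, and 3 of the 12 held none. Of its exon bases 28.6% are shared with an antisense gene, which had 0 counts in all libraries. DUSP4, a nuclear phosphatase of ERK and other MAP kinases, had no counts in 11 of the 12 libraries and 4 counts in Adh replicate 1. A count of 0 allows up to 0.0642 CPM over the Sep libraries and 0.0448 CPM over the Susp libraries, for counting error only. Transcripts of DUSP4 were therefore not detected in REC-1 cells without stromal cells in the same lysate at this depth.

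The Sprouty genes were expressed at a few CPM. SPRY1 was at 4.65, 3.68, 2.30 and 2.63 CPM in Sep libraries, at 2.12, 1.97, 2.22 and 1.54 CPM in Susp libraries, and at 3.61, 1.73, 2.06 and 1.54 CPM in Adh libraries. All Susp libraries lay below the Sep libraries, but the highest Susp library (2.22 CPM) and the lowest Sep library (2.30 CPM) nearly met. SPRY2 was at 1.89, 1.34, 1.26 and 1.59 CPM in Sep libraries, at 2.12, 2.34, 2.80 and 2.75 CPM in Susp libraries, and at 2.71, 2.50, 0.514 and 1.54 CPM in Adh libraries. Its Susp libraries lay above the Sep libraries, and its Adh libraries, the most spread, overlapped with both. The log2 fold change in Susp relative to Sep cells was -0.76 for SPRY1 (95% interval -1.40 to -0.11, edgeR adjusted p = 0.244) and 0.71 for SPRY2 (-0.05 to 1.47, edgeR adjusted p = 0.317). Neither gene was called in any comparison. SPRY2 rested on 12 to 24 counts per Sep library and 4 to 36 per Adh library.

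SPRED1 was the more abundant of the SPRED genes. It was at 9.29, 7.87, 5.65 and 5.58 CPM in Sep libraries, at 7.83, 5.04, 5.32 and 4.57 CPM in Susp libraries, and at 10.2, 7.51, 8.99 and 7.19 CPM in Adh libraries. Adh replicates 2 and 4 fell within the range of Susp cells, but each Adh library lay above the Susp library of the same number. The log2 fold change was 0.58 in Adh relative to Susp cells (SE 0.22, 95% interval 0.13 to 1.04, edgeR adjusted p = 0.187), -0.33 in Susp relative to Sep cells (-0.78 to 0.13, edgeR adjusted p = 0.433), and 0.26 in Adh relative to Sep cells (-0.20 to 0.72, edgeR adjusted p = 0.549). With the replicate number added to the model as a block, the first of these was 0.58 (SE 0.17, edgeR adjusted p = 0.0549), also uncalled. SPRED2 held 2 to 14 counts per library, with group means of 0.466 ± 0.225 CPM in Sep, 0.525 ± 0.295 CPM in Susp and 0.915 ± 0.703 CPM in Adh cells. Its intervals were the widest of the tested members, for example -0.37 to 2.20 in Adh relative to Sep cells. In the Adh libraries mouse counts of the counterpart genes far outnumbered these human counts: human reads were 1.83% of the summed SPRED1 and Spred1 counts and 0.429% for SPRED2. Whether wrongly assigned mouse reads contributed to the Adh values of SPRED1, SPRED2, SPRY2, DUSP4, DUSP6 and DUSP10 was not tested.

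**Figure D3:**
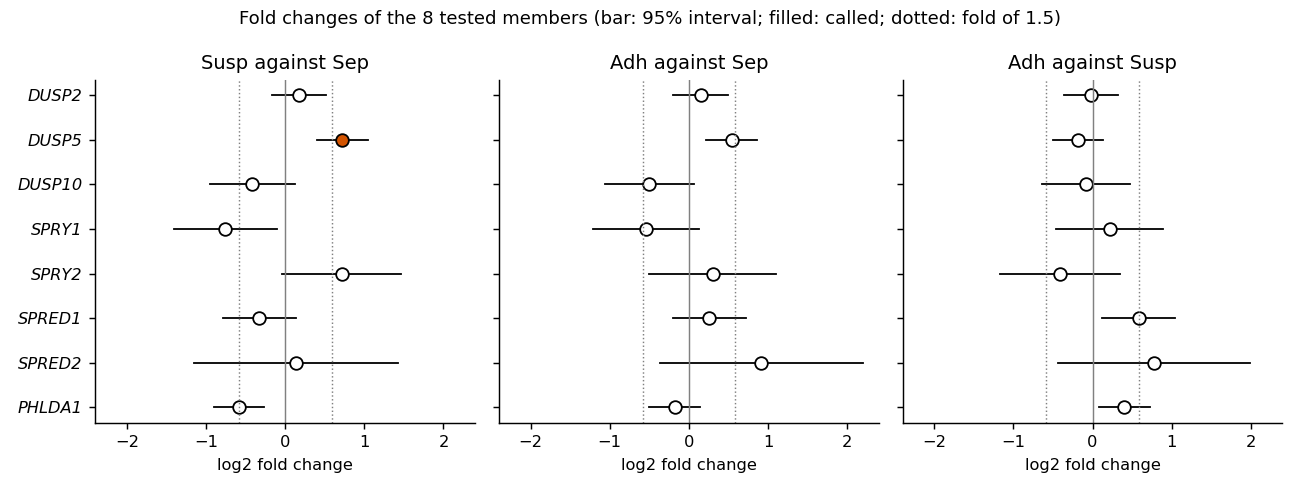
Log2 fold changes (horizontal axes) of the 8 tested members in the 3 comparisons of REC-1 groups, with 95% intervals from the edgeR model as bars. The filled point, DUSP5 in Susp relative to Sep cells at 0.72, was the only call, and dotted lines mark a fold of 1.5 in either direction.

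Over the members as a group, the edgeR model called 0 of 8 in Adh relative to Susp cells, 1 of 8 in Susp relative to Sep cells and 0 of 8 in Adh relative to Sep cells. Of all tested genes, 0.778%, 0.731% and 2.4% were called in these comparisons. At an unadjusted p under 0.05 there were 2, 3 and 1 members, compared with 18.0%, 16.7% and 20.2% of all genes, and DESeq2 called 0, 2 and 0 members. The median log2 fold change of the tested members was 0.10, -0.10 and 0.20, compared with -0.0051, -0.0059 and -0.0034 over all genes. Libraries did not overlap between groups for PHLDA1 in Adh against Susp cells (11.4% of all genes), for DUSP5, SPRY1, SPRY2 and PHLDA1 in Susp against Sep cells (11.3% of all genes), and for DUSP5 in Adh against Sep cells (15.7% of all genes). In Susp cells these 4 genes did not go one way: DUSP5 and SPRY2 lay above the Sep libraries and SPRY1 and PHLDA1 below them. Neither the tested phosphatases nor the Sprouty genes shared a direction in that comparison. In Adh relative to Susp cells the estimates of DUSP2, DUSP5 and DUSP10 were all slightly below 0, and none was called. Those of DUSP2 and DUSP10 changed sign when certain libraries were left out. The 4 tested MAP kinase phosphatases outside the members were all above 0 in that comparison, also uncalled.

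Other genes of the pathway were read from the same model. Of 5 further MAP kinase phosphatases, 4 were tested, and none was called in any comparison by edgeR or DESeq2 or had an unadjusted p under 0.05. DUSP16 (45.3 ± 3.98 CPM in Sep and 47.8 ± 6.43 CPM in Susp cells) and DUSP7 (18.5 ± 3.55 and 16.2 ± 2.54 CPM) were the more abundant of them. Of 10 further feedback inhibitors, 9 were tested and none was called by edgeR. DESeq2 called ERRFI1, an inhibitor of the EGF receptor, higher in Adh than in Susp cells (13.3 and 8.88 CPM, edgeR log2 fold change 0.58, adjusted p = 0.0804). Within that list, 2 genes in Adh against Susp, 2 in Susp against Sep and 3 in Adh against Sep cells had an unadjusted p under 0.05. All 15 genes of the relay from RAS to ERK were tested and none was called by edgeR, with 3, 7 and 2 genes at an unadjusted p under 0.05 in the same order of comparisons. DESeq2 called SOS1, the exchange factor that activates RAS, lower in Susp cells than in Sep cells (175 ± 53.4 and 276 ± 11.7 CPM, edgeR log2 fold change -0.65, adjusted p = 0.0849). Values of SOS1 and ERRFI1 without Susp replicate 2 were not read.

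Among the 9 p38 and JNK kinases, MAP2K3, which phosphorylates p38, rose in Susp relative to Sep cells from 115 ± 15.8 to 186 ± 28.6 CPM. Its log2 fold change was 0.69 (SE 0.13, edgeR adjusted p = 0.0102), and without Susp replicate 2 it was 0.58 (edgeR adjusted p = 0.00814), just under the required fold. In Adh cells MAP2K3 was at 156 ± 19.1 CPM and was not called against either group, and no other gene of the list was called by edgeR or DESeq2. Of 15 further transcripts induced by ERK, 9 were tested, and edgeR called none of them. At an unadjusted p under 0.05 there were 0, 2 and 2 of them in Adh against Susp, Susp against Sep and Adh against Sep cells. DESeq2 called NR4A1, an orphan nuclear receptor, higher in Susp than in Sep cells (29.5 ± 5.45 and 18.2 ± 4.30 CPM, edgeR log2 fold change 0.71, adjusted p = 0.0815), and EGR3, a zinc finger transcription factor, higher in Adh than in Sep cells (3.17 and 1.52 CPM, edgeR log2 fold change 1.03, adjusted p = 0.0774). NR4A1 was not read without Susp replicate 2. EGR1, an immediate early transcription factor, was at 16.4 ± 2.00 CPM in Sep and 15.1 ± 0.863 CPM in Susp cells (edgeR adjusted p = 0.655).

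**Figure D4:**
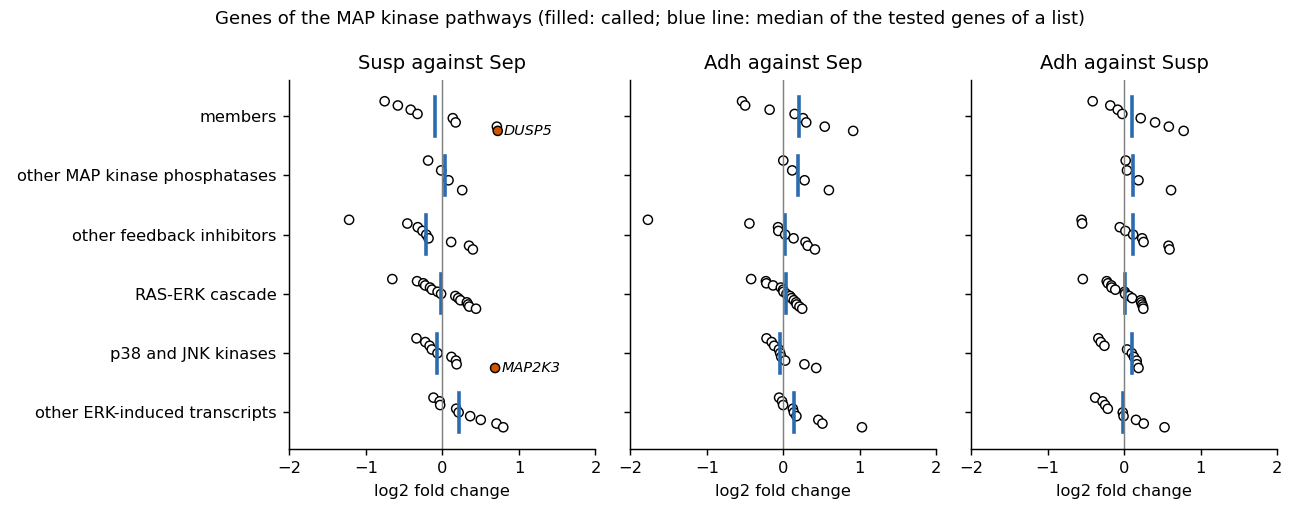
Log2 fold changes (horizontal axes) of the tested members and of 5 lists of MAP kinase pathway genes (vertical axis) in the 3 comparisons of REC-1 groups. Each point is a gene, filled where called by edgeR, and blue lines are medians of a list. DUSP5 and MAP2K3 in Susp relative to Sep cells are the only filled points.

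The genes whose level followed that of DUSP5 most closely over the 12 REC-1 libraries, among 9636 tested genes of at least 5 CPM on average, were CD48, JAGN1 and HSPA5. Pearson's r of log2 CPM was 0.97, 0.97 and 0.96, and 0.95, 0.96 and 0.97 without Susp replicate 2, a description over libraries that share their groups. CD48, a surface glycoprotein of leukocytes, was at 69.2 CPM in Sep, 92.2 in Susp and 85.7 in Adh cells. JAGN1, a protein of the endoplasmic reticulum, was at 42.1, 54.3 and 51.4 CPM, and HSPA5, the chaperone BiP of the same compartment, at 550, 634 and 625 CPM. All 3 had the group order of DUSP5, with Sep lowest and Susp highest, which follows largely from how they were chosen. None was called in Susp relative to Sep cells, where their log2 fold changes were 0.41, 0.37 and 0.21 with edgeR adjusted p-values of 0.0659, 0.143 and 0.177. Without Susp replicate 2 the log2 fold changes of CD48, JAGN1 and HSPA5 were 0.31, 0.24 and 0.17.

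The mouse reads of the Adh libraries gave the counterpart genes in MS-5 cells, which were also sequenced alone (4 libraries). Human and mouse counts were normalized separately, so levels are set side by side across species only as orders of magnitude. The most abundant member in REC-1 cells, DUSP2, had no mouse counterpart counts in any of the 8 libraries, and Spry1 had 4 counts in 1 of them. In the opposite direction, Dusp4 and Dusp6, nearly absent from REC-1 cells, were at 8.72 and 9.53 RPKM in MS-5 cells alone. Spred1 (18.7 RPKM) and Spred2 (12.7 RPKM) were the most abundant counterparts in MS-5 cells. Dusp5 was at 5.90 RPKM, Dusp10 at 6.48, Spry2 at 6.51 and Phlda1 at 4.95. Of the counts of both species in the Adh libraries, the human share was 100% for DUSP2 and 95.9% for SPRY1, 33.8% for PHLDA1 and 31.3% for DUSP5, and 7.03% or less for the other members.

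**Figure D5:**
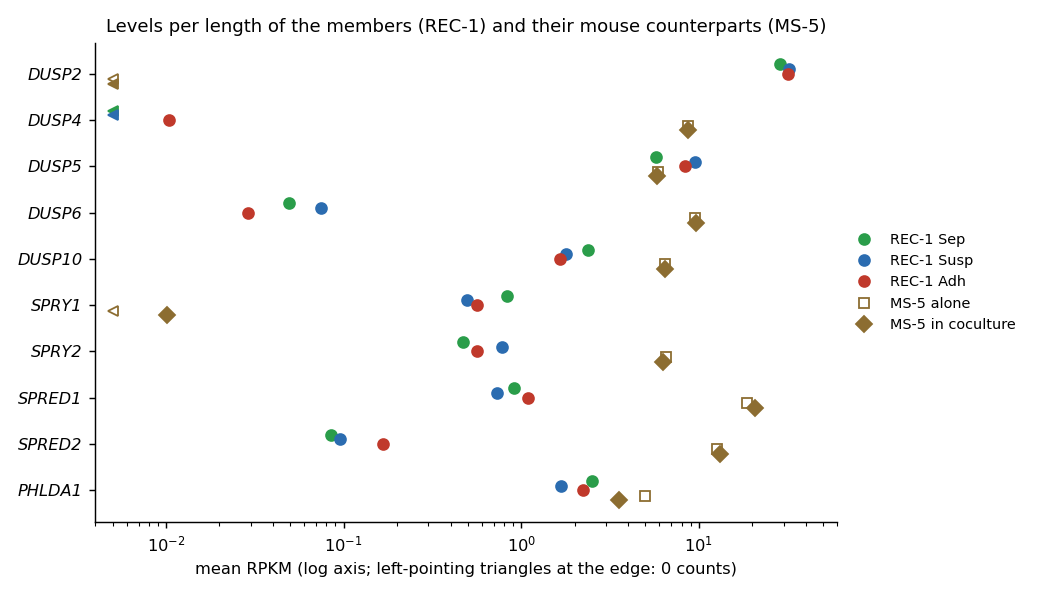
Mean RPKM (horizontal log axis) of the 10 members in REC-1 cells of the 3 groups and of their mouse counterparts in MS-5 cells alone and in coculture. Triangles at the left edge mark groups with 0 counts. DUSP2 and SPRY1 were found almost entirely in REC-1 cells, and DUSP4, DUSP6, SPRED1 and SPRED2 mainly in MS-5 cells.

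In MS-5 cells 8 counterparts were tested between coculture and culture alone, and none was called by edgeR or DESeq2. Of all 12201 mouse genes tested, 25 or 0.205% were called by edgeR, and 11.3% had an unadjusted p under 0.05. Among the counterparts 2 had an unadjusted p under 0.05. Phlda1 was at 7.82 ± 0.305 CPM in coculture and 10.9 ± 1.10 CPM alone (log2 fold change -0.48, SE 0.12, edgeR adjusted p = 0.0771). Spred1 was at 140 ± 10.5 and 127 ± 9.63 CPM (log2 fold change 0.15, SE 0.07, edgeR adjusted p = 0.437). For Dusp4, Dusp6, Dusp10, Spry2 and Spred2 the log2 fold change lay between -0.07 and 0.07, with intervals that leave out a 1.5-fold change. Dusp5 was at 14.3 ± 6.39 CPM in coculture and 14.6 ± 4.67 CPM alone, and its wider interval of -0.65 to 0.58 leaves a change of that size undecided. In Adh replicates 1 to 4 the raw mouse Dusp5 counts were 686, 569, 280 and 302. The raw human DUSP5 counts were 297, 206, 160 and 174, so both raw counts were higher in replicates 1 and 2. Total human counts were also higher there (13241751 and 10379467, compared with 7758979 and 7890759). Scaled to library size, human DUSP5 was at 22.3, 19.8, 20.6 and 22.3 CPM, and thus not higher in replicates 1 and 2. Whether wrongly assigned mouse reads contributed to the human DUSP5 counts was not tested.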

How the data were processed

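Poly-A RNA of REC-1 and MS-5 cells was sequenced in 16 libraries used here, 4 each of Sep, Susp and Adh REC-1 cells and 4 of MS-5 cells alone. The authors divided read pairs by species with Xenome, aligned them to GRCh38 or GRCm38 with STAR 2.5.1b, keeping uniquely mapped reads, and counted them on genes with featureCounts of Subread 1.5.2. The deposited values are raw counts per gene, neither normalized nor filtered. The strand setting of the counting is not given in the sources used here, and 20 other columns of the tables were not used. The study describes replicates as independent experiments.

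The 3 comparisons of REC-1 groups were contrasts in 1 edgeR 4.0.16 model of 12 libraries (R 4.3.3), since the study followed the glmQLF workflow of edgeR. Genes were filtered here with filterByExpr, libraries scaled by TMM, and contrasts tested by quasi-likelihood (legacy form). A call needed a Benjamini-Hochberg adjusted p of at most 0.05 and a fold of at least 1.5. Mouse counts of the Adh and MS-5 libraries had their own model. The code was tested on simulated counts. CPM used TMM-scaled library sizes, and RPKM the merged exon lengths of GENCODE 44 (human) or M21 (mouse), matched by gene identifier for all 10 members. Start regions and motifs were read from GRCh38. Alternatives were DESeq2 1.42.0, a replicate block, upper-quartile scaling, other filters, the later form of the test, no fold minimum, thinning, smaller models, and leaving out each library. The members and the lists of other genes were chosen with earlier results of these data known. All 10 members were named in every comparison. From the lists, genes called by edgeR were named, and genes called only by DESeq2, with EGR1, DUSP7 and DUSP16, were added after their values were seen. The 3 genes nearest to DUSP5 were taken by Pearson's r of log2 CPM (prior count 2).

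Depth limited precision most for genes at or below a few CPM. A count of 0 was taken to allow 3 counts, and intervals on counts cover counting error only.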

Additional observations from a re-analysis of the deposited data

Results flagged for a closer look

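In 3 of the 28 groups of 4 libraries with values to check, 1 library lay far from the other 3 by Dixon's criterion. For normally spread values chance alone would do so in about 1 group in 20. DUSP2 was at 78.7 CPM in Susp replicate 2, with the other Susp libraries at 55.0 to 58.7 CPM. This library differed from the other Susp libraries over all genes, and DUSP5 and MAP2K3 fall under the required fold in Susp relative to Sep cells without it. DUSP5 was at 18.4 CPM in Sep replicate 1, with the other Sep libraries at 12.9 to 13.6 CPM. DUSP4 was at 0.301 CPM (4 counts) in Adh replicate 1 and at 0 in the other Adh libraries, where mouse Dusp4 had 686 to 865 counts, with 736 in replicate 1. With the other libraries at 0, any count would have been flagged, so the rate of 1 in 20 does not apply to DUSP4.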

How the results depend on the processing

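Of 417 values of single members under the alternatives, 399 kept their direction and their side of the thresholds. The counts of called genes in Adh against Susp, Susp against Sep and Adh against Sep cells moved from 100, 94 and 309 to 282, 171 and 527 with DESeq2 and to 341, 217 and 503 without the low-count filter. Leaving out 1 library gave 51 to 92, 64 to 135 and 143 to 490 genes, and in MS-5 cells 8 to 36 in place of 25. MS-5 cells gave 38 with DESeq2 and 45 without the filter. The replicate block gave 281 genes in Adh against Susp, 175 in Susp against Sep and 45 in MS-5 cells, and changed no call of a member (DUSP5 in Susp against Sep cells: log2 fold change 0.72, edgeR adjusted p = 0.0157). Same-numbered libraries deviated together (r over 0.1) for 1 of 4 numbers in Adh and Susp, 1 of 4 in Susp and Sep and 3 of 4 in Adh and Sep cells. Of the 8 libraries in each comparison, 3, 3 and 6 correlated best with their own number. The sample codes of equal numbers belong together, but the labels do not say that a number marks a shared experiment. Under the criterion used, that every number be over 0.1, the reported fit has no block, and pairing remains possible.

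The members called in Susp against Sep cells became 2 with DESeq2 and 2 after thinning (DUSP5 and PHLDA1) and 0 in the model of 8 libraries, and ranged from 0 to 1 when a library was left out. In Adh against Sep cells they ranged from 0 to 1, and in Adh against Susp cells from 0 to 0. The log2 fold changes that turned their sign did so only when a library was left out, and were all uncalled. SPRED2 in Susp against Sep cells then ranged from -0.27 (without Susp replicate 1) to 0.54. In Adh against Susp cells DUSP2 ranged from -0.19 to 0.12, SPRY1 from -0.15 to 0.35 and DUSP10 from -0.42 to 0.081, and in Adh against Sep cells DUSP2 ranged from -0.012 to 0.24. Of 192 log2 fold changes of members with 1 library left out, 49 moved by over 1.5 times, and none of those was called with or without that library. Why these settings moved the values was not tested. Halving all counts, added after seeing that low counts were mostly even, changed no call of a member. SPRED2 and SPRY2 were left out where a filter removed them, and depth limits them, DUSP4 and DUSP6 most.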
